A study of Mus musculus with 15 samples.

Results

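Cadherins and non-clustered protocadherins are calcium-dependent adhesion proteins of the cell surface, and their genes were followed across sorted cells of the embryonic mouse thalamus. Members were the genes whose symbol is Cdh or Pcdh followed by a number (Pcdh11x included), taken from array features annotated with 1 gene symbol. The clustered protocadherins of the alpha, beta and gamma groups were not included. This rule gave 35 genes, 23 cadherins and 12 protocadherins, of 22180 genes on the array with 1 symbol. Where a gene had several features, the feature with the highest mean over all arrays was used.

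Expression was measured on 15 Affymetrix arrays, 3 biological replicates for each of 5 groups. At E18.5 the groups were double-labelled, red and green cells, and at E14.5 they were red and green cells. All groups carried Gbx2CreER-IRES-EGFP/+ together with R26lsl-tdTomato/+ on a C57BL/6 background. The Gbx2 locus, which encodes a thalamic homeodomain factor, thus drove both EGFP and a tamoxifen-inducible Cre, and tdTomato marked cells in which Cre had acted, with their descendants. Tamoxifen (4 mg) was given at E9 in the case of the E18.5 groups and at E9.5 in that of the E14.5 groups, so stage and time of labelling change together and cannot be told apart. Every group carried the Gbx2 allele on 1 chromosome, and the labels give neither the sorting gates nor whether replicates came from separate litters, so p-values measure the spread between these samples.

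Classical cadherins bind the same cadherin on a neighbouring cell through their extracellular repeats and are tied to actin by catenins. Type I and type II classical cadherins differ in their adhesive interface, and type II cadherins are known for being expressed in distinct sets of brain nuclei, including those of the thalamus. The delta-1 and delta-2 protocadherins are the main non-clustered protocadherins. They adhere more weakly, and several delta-2 members recruit the WAVE complex, which promotes actin branching, and are known for roles in axon growth.

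Values are the deposited log2 signals unless quantile normalisation is named. The deposited mean over all features was 6.17 to 6.19 at E18.5 and 5.63 to 5.65 at E14.5. The main tests of level between the stages therefore used quantile-normalised values, with deposited values as an alternative. In the E18.5 arrays 42.9% of features held a value that another E18.5 array repeated exactly, against 1.71% at E14.5. This touched 13 of the 35 members at E18.5 and 0 at E14.5, so an SD near 0 at E18.5, such as that of Cdh13 in red cells, is no measure of spread. Among the E18.5 arrays the narrowest range of signals was seen in double-labelled replicate 1 and red replicate 1, called the narrow-range arrays here. The SD over all features was 1.31 and 1.34 there, and 1.44 to 1.51 in the remaining 7 arrays of that stage. The lowest value of the double-labelled group was in replicate 1 for 22 of 32 members, and that of the red group for 21 of 32, against 49.1% and 38.6% of all genes tested. Of 10 thalamic markers all passed the filter on low signal, and the thalamic factor Tcf7l2 had group means of 11.55 to 12.00. Of 10 endothelial markers Pecam1, Kdr, Flt1, Tie1 and Egfl7 passed, and Cldn5, Tek, Esam, Emcn and Slco1c1 did not. Of 10 pericyte and meningeal markers 7 passed, of 7 microglial markers 6, and of 5 oligodendrocyte lineage markers 4. The microglial gene Cx3cr1 had group means of 6.09 to 7.23. All 11 progenitor and all 11 prethalamic and GABAergic markers passed, and 8 of 9 habenular markers.

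Of the 35 members, 32 passed the filter, which left out the 25% of genes with the lowest mean signal (under 5.07), and 16635 genes were tested in all. Those left out were Cdh17, the liver and intestine cadherin, Cdh19, known from Schwann cell precursors, and Cdh23, a tip-link component of hair cells. Their values over the 15 arrays were 4.50 to 4.99 for Cdh17, 4.25 to 4.68 for Cdh19 and 4.48 to 5.31 for Cdh23. Over the same arrays Cdh16, the kidney cadherin, had deposited values of 4.76 to 5.69, Cdh15, the muscle cadherin, 5.19 to 6.15, and Cdh3, the placental cadherin, 4.69 to 5.91. All members are shown by array in the plot of differences from the green cells of each stage.

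**Figure D1:**
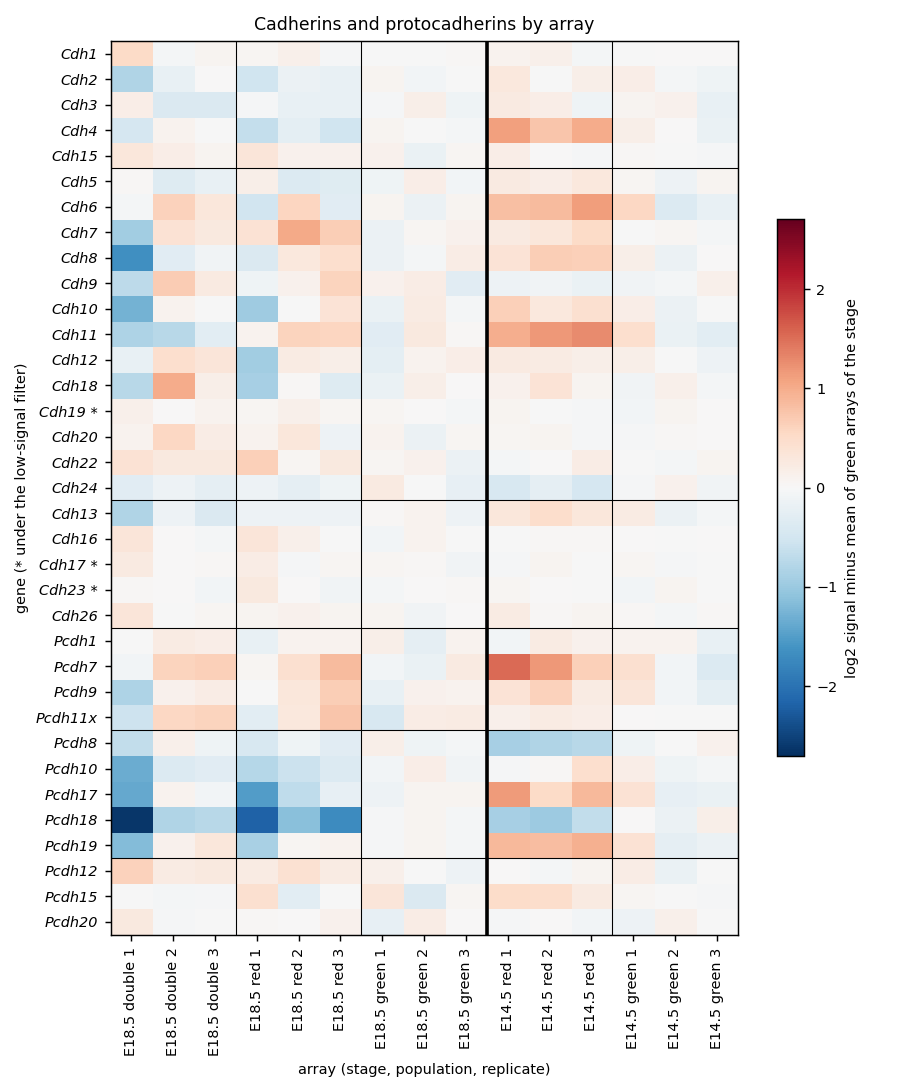
Each cell shows a member's log2 signal in 1 array minus the mean of the 3 green arrays of the same stage, with members down the page by class (type I, type II and other cadherins, then delta-1, delta-2 and other protocadherins) and arrays across, E18.5 left of the thick line. Pcdh18 is the darkest blue row in E18.5 double-labelled and red cells, and Cdh4, Cdh11 and Pcdh7 are red in E14.5 red cells.

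The stages were compared within each colour to see which members differed between late and middle gestation. After quantile normalisation most members were higher at E18.5. In red cells 20 of 32 members passed the threshold of an adjusted p of 0.05, 17 higher and 3 lower, against 27.6% of all genes tested (13.5% higher and 14.1% lower). In green cells 23 passed, 20 higher and 3 lower, against 33.8% of all genes (16.0% higher and 17.8% lower). The median log2 difference of the members was 0.46 in red and 0.65 in green cells, and that of all genes was -0.02 in each colour. Higher in both colours were 14 members, namely Cdh6, Cdh7, Cdh8, Cdh12, Cdh13, Cdh18, Cdh20, Pcdh7, Pcdh10, Pcdh11x, Pcdh17, Pcdh18, Pcdh19 and Pcdh20. Lower in both were Cdh1, Cdh24 and Cdh26. The filter used the mean over all 15 arrays. As deposited, the E14.5 means of Cdh12, Cdh18, Cdh20, Pcdh11x and Pcdh20 were 4.41 to 4.88 in both colours, under its cut of 5.07. So were those of Cdh1, Cdh5 and Cdh9 (4.65 to 5.02) and that of Pcdh15 in green cells (4.89). These genes passed the filter through their E18.5 arrays, so their differences started from E14.5 signals in the range left out. Arrays of the stages did not overlap for 20 members in red cells, 17 higher and 3 lower, against 41.0% of all genes (20.1% higher and 21.0% lower), and for 24 in green cells, 21 higher and 3 lower, against 60.2% (28.2% higher and 31.9% lower). The deposited values have no such normalisation between stages, and with them 30 members passed in red and 31 in green cells, against 72.4% and 73.5% of all genes, whose median shift was 0.60 in red and 0.61 in green cells. As deposited the members had a median shift of 1.08 in red and 1.28 in green cells, and 28 and 26 of the 32 members lay above the shift of all genes.

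Type II cadherins made up the largest class, and 8 of 12 rose and 1 fell in red cells, while 9 rose and 1 fell in green cells. Cdh7, a type II cadherin studied in chick neural tube and hindbrain, had quantile-normalised levels of 8.01, 8.32 and 8.01 in E18.5 red cells, against 5.72, 5.79 and 6.00 in E14.5 red cells. The groups did not overlap, and the log2 difference was 2.28 (SE 0.22, 4.85-fold, limma adjusted p 9.2e-06). In green cells Cdh7 had 7.14, 7.27 and 7.40 at E18.5, against 5.49, 5.57 and 5.45 at E14.5, a difference of 1.77 (SE 0.22, adjusted p 3.6e-05). Every E18.5 array was thus above every E14.5 array in each colour.

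Cdh12, a brain type II cadherin, had 5.74, 6.96 and 6.96 in E18.5 red cells, against 5.16, 5.12 and 5.09 in E14.5 red cells. The lowest E18.5 value was in the narrow-range array, and the difference was 1.43 (SE 0.26, adjusted p 0.0011), or 1.84 without the narrow-range arrays. In green cells Cdh12 had 6.47, 6.79 and 6.90 at E18.5, against 5.09, 4.88 and 4.66 at E14.5, a difference of 1.84 (SE 0.26, adjusted p 9.3e-05). Cdh6, the kidney cadherin that also marks distinct brain regions, had 8.01, 7.69 and 7.99 in E18.5 green cells, against 6.63, 5.71 and 5.90 in E14.5 green cells. It rose by 1.81 (SE 0.23, adjusted p 5.2e-05) in green cells and by 0.98 (SE 0.23, adjusted p 0.0072) in red cells. Cdh18, a further type II cadherin of the nervous system, rose by 1.75 (SE 0.32, adjusted p 7.8e-04) in green cells and by 1.19 (SE 0.32, adjusted p 0.013) in red cells, and the red value did not pass without E18.5 red replicate 2 (0.97, adjusted p 0.055). Cdh8, which is known from synapses of sensory circuits, had 9.39, 9.65 and 9.83 in E18.5 red cells, against 8.36, 8.72 and 8.54 in E14.5 red cells. Its groups did not overlap, with a difference of 1.08 (SE 0.22, adjusted p 0.0029) in red and 1.41 (SE 0.22, adjusted p 2.8e-04) in green cells.

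Cdh20 rose by 0.65 in red and 0.60 in green cells (SE 0.12 each). Cdh9, known from synapses of the hippocampus and retina, rose in red cells (0.85, SE 0.29, adjusted p 0.040), and its value in green cells was 0.51 (SE 0.29, adjusted p 0.19). Of the 6 fits that left out 1 of the red arrays, Cdh9 passed only in that without E18.5 red replicate 1, and the others gave adjusted p-values of 0.067 to 0.16. Cdh22 likewise passed in red cells alone, at 0.41 (SE 0.14, adjusted p 0.046) against 0.11 (adjusted p 0.60) in green cells. It was 0.24 (adjusted p 0.16) without E18.5 red replicate 1 and did not pass either without E18.5 red replicate 3, E14.5 red replicate 1 or E14.5 red replicate 2 (adjusted p 0.081 to 0.15), nor with arrays centred on their median (adjusted p 0.076) or a fit of the compared groups alone (0.16). Cdh10 and Cdh11 passed in green cells alone, at 0.98 (adjusted p 0.019) and 0.97 (adjusted p 0.0014), and had 0.42 (adjusted p 0.30) and 0.40 (adjusted p 0.14) in red cells. The green value of Cdh10 did not pass without E18.5 green replicate 2, E14.5 green replicate 2 or E14.5 green replicate 3 (adjusted p 0.055 to 0.066). The difference between the colours is tested below and did not pass for these 4 genes. Cdh24, a type II cadherin, was the exception in direction. It had 6.82, 6.58 and 6.77 in E18.5 red cells, against 7.37, 7.62 and 7.24 in E14.5 red cells, and 7.05, 6.76 and 6.58 in E18.5 green cells, against 7.69, 7.84 and 7.61 in E14.5 green cells. It fell by 0.69 in red (SE 0.13, adjusted p 0.0019) and by 0.91 in green cells (SE 0.13, adjusted p 1.3e-04), and in each colour the groups did not overlap. On the deposited scale its red difference was -0.07 (adjusted p 0.59).

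Cdh5, the endothelial VE-cadherin, passed in green cells, at 0.58 (SE 0.13, adjusted p 0.0027), and had 0.09 (adjusted p 0.65) in red cells. With arrays centred on their median the green value was 0.43 and did not pass (adjusted p 0.053). Of the 5 endothelial markers tested, 0 passed in the limma test of green cells and 1 had an unadjusted p under 0.05. Of 7 pericyte and meningeal markers tested, 3 were higher and 0 lower in E18.5 than E14.5 green cells, namely Rgs5 (1.60, adjusted p 5.7e-04), Abcc9 (0.70, adjusted p 4.6e-05) and Kcnj8 (0.37, adjusted p 0.015). In red cells 1 was higher (Abcc9, 0.45, adjusted p 0.0023). Of all genes tested 16.0% were higher in green and 13.5% in red cells. The part of pericytes and meningeal cells in the Cdh5 value was not tested. Pcdh12, which is also known from endothelial cells, passed in neither colour (0.11 in red and -0.10 in green cells).

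Among the type I cadherins, Cdh1, the epithelial E-cadherin, was lower in both colours at E18.5 (-0.50 in red and -0.46 in green cells, SE 0.09 each). Its other feature gave -0.27 (adjusted p 0.049) in red and -0.09 (adjusted p 0.52) in green cells. As deposited the used feature had 0.08 in red and 0.09 in green cells, so its direction rests on the scaling between stages. The same holds for Cdh26, an epithelial cadherin, with -0.40 and -0.33 after quantile normalisation and 0.27 and 0.28 as deposited. Cdh2, the N-cadherin that is the main classical cadherin of neurons, had 0.01 (adjusted p 0.97) in red and 0.37 (SE 0.13, adjusted p 0.038) in green cells on the feature used, which did not pass in 4 of the 6 fits that left out 1 green array (without E18.5 green replicates 1 or 3 or E14.5 green replicates 2 or 3, adjusted p 0.080 to 0.15). That feature has an identifier among features of chromosome 4 (10 of the 10 nearest), whereas Cdh2 lies on chromosome 18. The other Cdh2 feature, whose 10 nearest are all from chromosome 18, had -0.56 (adjusted p 0.034) in red and -0.11 (adjusted p 0.67) in green cells, so no direction is given for Cdh2. Cdh4, the retinal R-cadherin, had 7.29, 7.15 and 7.16 in E18.5 green cells, against 5.91, 5.75 and 5.57 in E14.5 green cells, with no overlap. The difference was 1.46 (SE 0.12, adjusted p 7.4e-07) in green cells and 0.14 (SE 0.12, adjusted p 0.39) in red cells. The other Cdh4 feature gave -0.06 (adjusted p 0.77) in green and -0.50 (adjusted p 0.012) in red cells, and the 2 features disagree.

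Cdh13, the T-cadherin, which has a lipid anchor in place of the usual cytoplasmic tail, had 7.48, 7.23 and 7.27 in E18.5 red cells, against 6.14, 6.36 and 6.12 in E14.5 red cells. It rose by 1.12 (SE 0.13, adjusted p 3.5e-05) in red and by 1.45 (SE 0.13, adjusted p 1.5e-06) in green cells, with no overlap in either colour.

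All 5 delta-2 protocadherins were higher at E18.5 in red cells, and 4 of 5 in green cells. Pcdh17, which is known to recruit the WAVE complex to contacts between growing axons, had 8.54, 8.63 and 8.74 in E18.5 green cells, against 6.55, 5.96 and 5.99 in E14.5 green cells. The difference was 2.47 (SE 0.28, 5.55-fold, adjusted p 2.0e-05) in green cells. In red cells Pcdh17 had 7.42, 7.99 and 8.50 at E18.5, against 7.32, 6.72 and 6.94 at E14.5, a difference of 0.98 (SE 0.28, adjusted p 0.020). The red difference did not pass without E18.5 red replicate 3 (0.71, adjusted p 0.090), E14.5 red replicate 2 (adjusted p 0.082) or E14.5 red replicate 3 (adjusted p 0.058), nor with arrays centred on their median (adjusted p 0.070) or a fit of the compared groups alone (0.055). Neither colour had an overlap, though the lowest E18.5 red value, in the narrow-range array, lay only just above the highest E14.5 red value.

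Pcdh18, a delta-2 protocadherin known to bind the adaptor Dab1, had 8.65, 8.61 and 8.59 in E18.5 green cells, against 6.65, 6.50 and 6.77 in E14.5 green cells, a difference of 1.98 (SE 0.37, adjusted p 9.6e-04). In red cells the difference was 1.25 (SE 0.37, adjusted p 0.022), and it did not pass without E18.5 red replicate 2, E14.5 red replicate 1 or E14.5 red replicate 2 (adjusted p 0.063 to 0.085). Pcdh19, the X-linked gene that is mutated in a form of female epilepsy, had 8.22, 8.22 and 8.19 in E18.5 green cells, against 6.63, 6.04 and 6.10 in E14.5 green cells. It rose by 1.95 (SE 0.25, adjusted p 4.7e-05) in green and by 0.99 (SE 0.25, adjusted p 0.0094) in red cells. Pcdh10, which binds the WAVE component Nckap1, had 9.31, 9.45 and 9.27 in E18.5 green cells, against 7.77, 7.48 and 7.52 in E14.5 green cells. It rose by 1.75 (SE 0.15, adjusted p 1.2e-06) in green and by 1.13 (SE 0.15, adjusted p 1.2e-04) in red cells. Pcdh8, an activity-induced protocadherin also called arcadlin, passed in red cells, at 0.50 (SE 0.14, adjusted p 0.018), and had -0.08 (SE 0.14, adjusted p 0.69) in green cells. The red value of Pcdh8 did not pass without E18.5 red replicate 2 (adjusted p 0.062) or E14.5 red replicate 1 (adjusted p 0.065).

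Of the delta-1 class, Pcdh11x, an X-linked protocadherin, rose by 1.41 in red (SE 0.31, adjusted p 0.0046) and by 1.46 in green cells (SE 0.31, adjusted p 0.0027). Pcdh7 rose by 1.01 in red (SE 0.24, adjusted p 0.0077) and by 1.52 in green cells (SE 0.24, adjusted p 3.1e-04). Pcdh1 and Pcdh9 passed in neither colour, with values of 0.20 and 0.41 in red and 0.24 and 0.37 in green cells. Of the others, Pcdh20 rose by 0.57 in red and 0.52 in green cells (SE 0.12 each). Pcdh15, a tip-link protein, passed in green cells at 0.71 (adjusted p 0.0081), with 0.36 (adjusted p 0.16) in red cells. Its other feature passed in both colours, at 0.58 in red (adjusted p 0.012) and 0.43 in green cells (adjusted p 0.043).

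**Figure D2:**
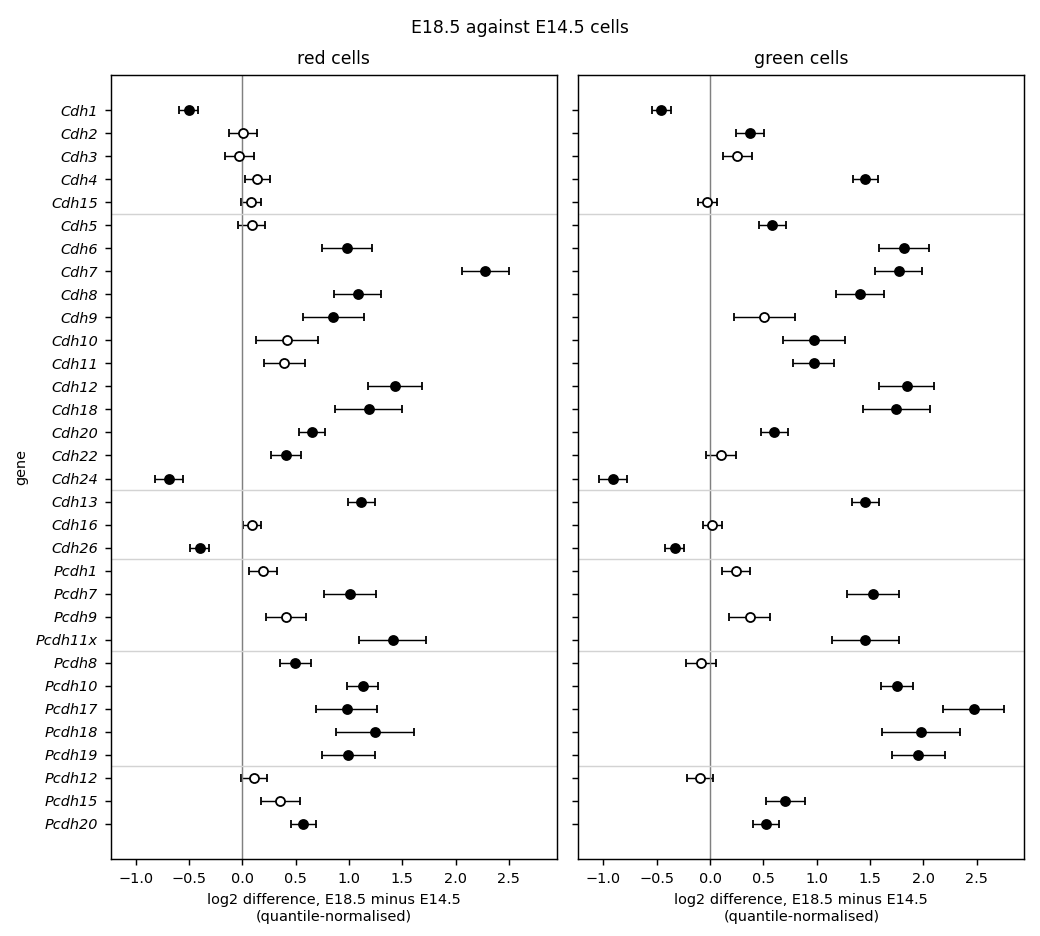
Each point is a member's log2 difference, E18.5 minus E14.5, after quantile normalisation, for red cells on the left and green cells on the right, with bars of 1 SE and filled points where limma's adjusted p is under 0.05. Most filled points lie right of 0, and Cdh1, Cdh24 and Cdh26 lie left of it in both colours.

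Progenitor markers moved with stage in the same arrays. In green cells 8 of 11 were lower at E18.5 and 0 higher, among them the proliferation genes Mki67 (-1.83, adjusted p 2.6e-06) and Top2a (-1.78, adjusted p 5.3e-06). In red cells 4 were lower and 2 higher. Of all genes tested 17.8% were lower and 16.0% higher in green cells, and 14.1% lower and 13.5% higher in red cells. Arrays measure a sorted population as a whole, so fewer cells of a type and less RNA per cell cannot be told apart, and the part of these markers in the members' differences was not tested.

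Among genes that work with cadherins, catenins and WAVE genes were called in both directions. Of all genes tested 13.5% rose and 14.1% fell in red cells, and 16.0% rose and 17.8% fell in green cells. Of 19 catenins and junction partners, 4 rose and 4 fell in red cells, and 5 rose and 6 fell in green cells. Ctnnd1, the p120 catenin that holds classical cadherins at the membrane, fell by 0.87 in red (adjusted p 0.0021) and by 0.66 in green cells (adjusted p 0.0090). Pkp4, a plakophilin of the p120 family, rose by 0.65 in red and 1.27 in green cells. Of 12 genes of the WAVE complex and partners of delta protocadherins, 3 rose and 4 fell in red cells, and 4 rose and 4 fell in green cells. Wasf1 and Wasf3, the WAVE proteins that neurons express, rose by 0.83 and 0.84 in red and by 0.93 and 0.89 in green cells. Ryk, a Wnt receptor, fell by 0.53 in red and 0.81 in green cells. Of 18 other genes of the cadherin superfamily tested, 10 rose and 4 fell in each colour. Cdhr1, a photoreceptor cadherin that is also expressed in the olfactory bulb, rose by 1.54 in red and 2.03 in green cells, and Dchs2, a large dachsous cadherin, rose by 1.20 in each colour. Of 11 genes of cadherin shedding and processing, 1 rose and 3 fell in red cells, and 1 rose and 4 fell in green cells.

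At E14.5 red cells were compared with green cells to find members that differed between the labelled populations in middle gestation. Of the 32 members, 4 passed, 3 higher and 1 lower in red cells, against 3.52% of all genes tested (1.89% higher and 1.64% lower). An unadjusted p under 0.05 was reached by 11 members, against 11.9% of all genes. The red and green arrays did not overlap for 18 members, 14 higher and 4 lower in red cells, against 27.9% of all genes (13.7% higher and 14.1% lower). The difference was above 0 for 27 of 32 members, with a median of 0.17, against 50.6% of all genes, with a median of 0.00.

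Cdh4 had 6.43, 6.07 and 6.32 in E14.5 red cells, against 5.49, 5.33 and 5.15 in E14.5 green cells. The red arrays all lay above the green arrays, and the difference was 0.95 (SE 0.16, 1.93-fold, limma adjusted p 0.0030). The other Cdh4 feature had 5.63, 5.67 and 5.60 in red cells, against 5.36, 5.46 and 5.33 in green cells, a difference of 0.25 (SE 0.15, adjusted p 0.65). It too had no overlap, with a smaller difference that did not pass.

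Cdh11, a type II cadherin first known from osteoblasts and also expressed in brain, had 8.26, 8.43 and 8.54 in E14.5 red cells, against 7.72, 7.09 and 6.99 in E14.5 green cells. The groups did not overlap, and green replicate 1 was the nearest to the red arrays. The difference was 1.14 (SE 0.22, 2.20-fold, adjusted p 0.0081), and it did not pass without green replicate 2 (adjusted p 0.054) or green replicate 3 (0.061). Cdh6 had 6.47, 6.52 and 6.80 in red cells, against 6.24, 5.30 and 5.48 in green cells, a difference of 0.93 (SE 0.28, adjusted p 0.11) with no overlap.

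The next 2 genes are delta protocadherins, and they differed in opposite directions. Pcdh7, a delta-1 protocadherin, had 7.03, 6.66 and 6.13 in E14.5 red cells, against 5.93, 5.42 and 5.12 in E14.5 green cells. Red values all lay above green values, with a wide spread in both groups, and the difference was 1.12 (SE 0.28, 2.17-fold, adjusted p 0.040). Pcdh8 had 5.63, 5.72 and 5.78 in red cells, against 6.41, 6.52 and 6.65 in green cells. All red arrays lay below all green arrays, and the difference was -0.82 (SE 0.17, 1.77-fold lower, adjusted p 0.012). Of these 4 members only Cdh4 passed in each fit that left out 1 of the compared arrays. Without green replicate 2 or green replicate 3 Cdh4 alone passed, and without red replicate 1 or red replicate 2 Cdh4 and Cdh11 passed. In a fit of the 6 E14.5 arrays alone 11 members passed, against 8.22% of all genes.

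The promoters of these protocadherins are shown since the genes differed in opposite directions between red and green cells at E14.5. Each line gives the 250 bases before the RefSeq start of the gene on its own strand, from the table of build GRCm38.p6, with TATAAA (the TATA box) or GGGCGG (the GC box), searched on both strands, in capitals. The windows are chr5:57717831-57718080 on the plus strand for Pcdh7 and chr14:79771313-79771562 on the minus strand for Pcdh8.
Pcdh7: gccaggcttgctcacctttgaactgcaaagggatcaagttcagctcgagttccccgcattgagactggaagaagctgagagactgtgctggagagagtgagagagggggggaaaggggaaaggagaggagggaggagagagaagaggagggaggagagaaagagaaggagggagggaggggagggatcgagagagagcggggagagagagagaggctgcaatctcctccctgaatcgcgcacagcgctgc
Pcdh8: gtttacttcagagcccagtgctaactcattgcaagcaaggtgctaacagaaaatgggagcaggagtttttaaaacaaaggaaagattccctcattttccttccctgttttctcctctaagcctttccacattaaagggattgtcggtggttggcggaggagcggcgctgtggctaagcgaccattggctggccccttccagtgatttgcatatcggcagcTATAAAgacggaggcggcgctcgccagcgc
The Pcdh8 window holds a TATAAA 30 bases before the start, and the Pcdh7 window holds neither motif. TATAAA was present in 12.4% and GGGCGG in 32.7% of 32851 promoter windows of this length. The table held 25 windows for 22 of the 35 members, of which 2 had TATAAA (Pcdh8 and Pcdh15) and 9 had GGGCGG. The G and C content was 58.4% in the Pcdh7 window and 51.2% in the Pcdh8 window, against a median of 52.4% over all windows.

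The other delta-2 protocadherins did not move together at E14.5. Pcdh19 had 6.72, 6.68 and 6.80 in red cells, against 6.24, 5.61 and 5.68 in green cells (difference 0.89, SE 0.33, adjusted p 0.24). Pcdh17 had 6.90, 6.26 and 6.61 in red cells, against 6.15, 5.54 and 5.56 in green cells (0.84, SE 0.36, adjusted p 0.36). Pcdh18 had 5.36, 5.28 and 5.61 in red cells, against 6.26, 6.10 and 6.42 in green cells (-0.84, SE 0.38, adjusted p 0.40). In all 3 genes red and green arrays did not overlap, and none passed. Pcdh10 had 7.23, 7.29 and 7.71 in red cells, against 7.43, 7.14 and 7.21 in green cells, and the groups overlapped.

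Of the remaining members, Cdh24 (-0.37, adjusted p 0.15), Cdh13 (0.36, adjusted p 0.35) and Pcdh15 (0.41, adjusted p 0.40) had unadjusted p-values under 0.05 and groups that did not overlap. Cdh5, Cdh7, Cdh8, Cdh10, Cdh26 and Pcdh11x were higher in each red array than in any green array, with differences of 0.11 (Cdh26) to 0.57 (Cdh8). Cdh9 was lower in each red array (-0.14). The E14.5 means of Cdh5, Cdh9 and Pcdh11x were 4.41 to 4.90 in both colours, under the filter's cut of 5.07. The other 14 members overlapped, with differences between -0.03 and 0.40.

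**Figure D3:**
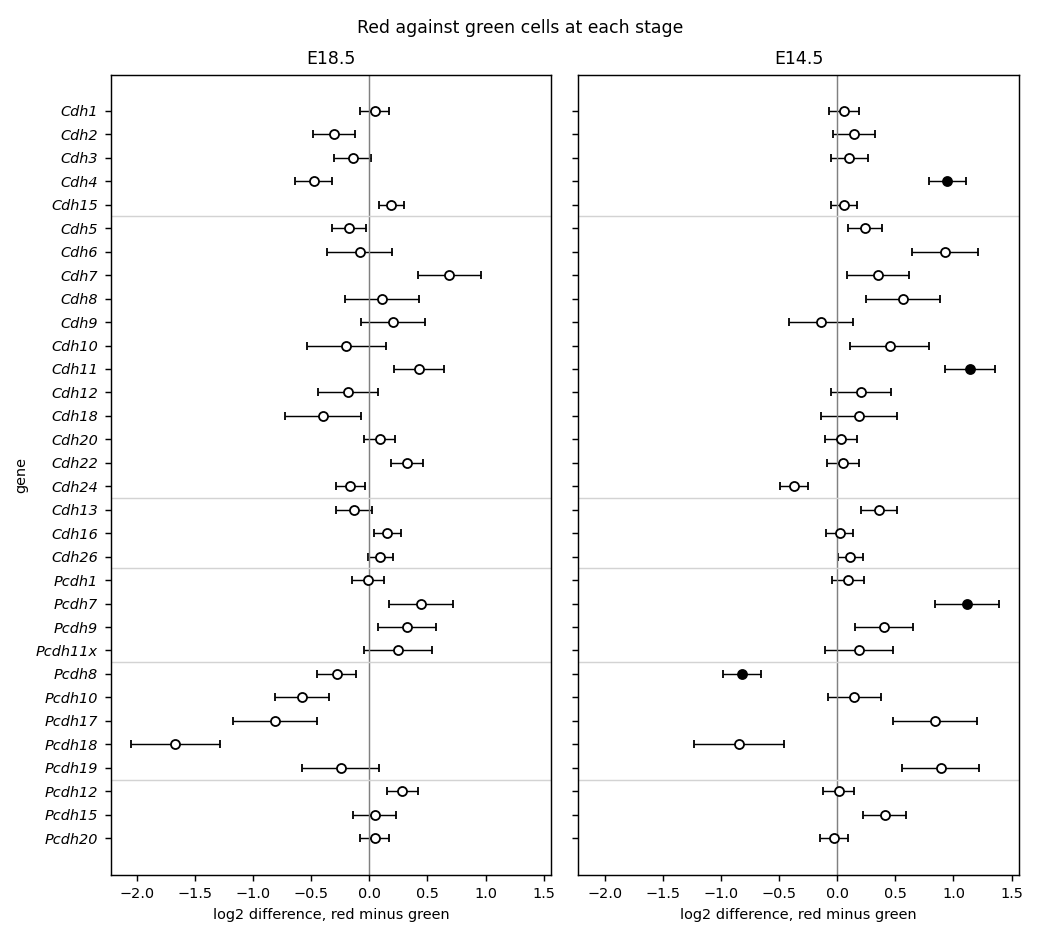
Each point is a member's log2 difference, red minus green, at E18.5 on the left and E14.5 on the right, with bars of 1 SE and filled points where limma's adjusted p is under 0.05. Filled are Cdh4, Cdh11, Pcdh7 and Pcdh8 at E14.5 and no member at E18.5, and Cdh4 lies on opposite sides of 0 at the 2 stages.

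Markers of other cell types also differed between the E14.5 groups. Of 11 progenitor markers 4 passed, against 3.52% of all genes tested. Top2a (-1.89), Mki67 (-1.17) and Nes (-0.54) were lower and Slc1a3 (1.01) was higher in red cells. The summed linear signal of the 11 markers was 2467 to 2736 in red and 3175 to 3223 in green arrays. Of 11 prethalamic and GABAergic markers Gad2 (0.82, adjusted p 0.014) was higher in red cells, with summed signals of 652 to 781 in red and 571 to 621 in green arrays. The thalamic factors Lhx9 (-0.89) and Lhx2 (-1.03) were lower and the nuclear receptor Rora (1.06) was higher in red cells, and the embryonic globin Hbb-y was higher in red cells (1.46). The part of these cells in the members' differences was not tested.

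Among catenins and junction partners 5 of 19 passed at E14.5, against 3.52% of all genes tested. Ctnna1, the alpha-catenin of most epithelia, was lower in red cells (5.62 ± 0.05 against 6.57 ± 0.26 in green cells, SD, n = 3 each, difference -0.95, adjusted p 4.9e-04), as was the actin linker Vcl (-0.62, adjusted p 0.0063). The neural catenin Ctnnd2 (0.63, adjusted p 0.011), Pkp4 (0.54, adjusted p 0.023) and the scaffold Magi1 (0.53, adjusted p 0.023), named after its value was seen, were higher. Mmp14, a membrane metalloprotease, was the only 1 of 11 shedding and processing genes that passed, and it was lower in red cells (-1.60, SE 0.16, adjusted p 1.0e-04). Of the 12 WAVE and partner genes and of the 18 other cadherin superfamily genes 0 passed in limma's test. An unadjusted p under 0.05 was reached by 3 of each list, against 11.9% of all genes.

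At E18.5 the double-labelled, red and green cells were compared to find members that differed between the populations in late gestation. In red against green cells 0 of 32 members passed, against 0.613% of all genes tested, and 6 had an unadjusted p under 0.05, against 10.0% of all genes. Groups did not overlap for 8 members, 2 higher and 6 lower in red cells, against 15.3% of all genes (6.14% higher and 9.11% lower). In the test for any difference among the 3 populations 0 members passed, against 0.427% of all genes, and 7 had an unadjusted p under 0.05, against 7.26%. The E18.5 values of 9 members are set beside those of E14.5 in the plot of signal per array.

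Pcdh18 had the smallest p of the members in red against green cells. Its values were 6.76, 7.83 and 7.24 in E18.5 red cells, against 8.92, 9.01 and 8.90 in E18.5 green cells. Every red array was below every green array, with the lowest value in the narrow-range red array. The difference was -1.67 (SE 0.38, 3.18-fold lower in red cells, adjusted p 0.078). Without the narrow-range arrays it was -1.41 and passed (adjusted p 5.6e-04), whereas leaving out red replicate 1 alone gave the same -1.41 and it did not pass (adjusted p 0.27).

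Cdh7 had 7.98, 8.61 and 8.25 in E18.5 red cells, against 7.43, 7.64 and 7.71 in E18.5 green cells. The red arrays all lay above the green arrays, by 0.69 (SE 0.27, adjusted p 0.41), and by 0.84 without the narrow-range arrays, where it passed (adjusted p 0.0041). Leaving out red replicate 1 alone also gave 0.84, which did not pass (adjusted p 0.44). Cdh4 had 6.88, 7.26 and 6.97 in red cells, against 7.58, 7.51 and 7.46 in green cells, a difference of -0.48 (SE 0.16, adjusted p 0.29). The red arrays lay below the green arrays on this feature, the opposite order to E14.5. The other Cdh4 feature had -0.17 (SE 0.15, limma adjusted p 0.65), and its groups overlapped. Cdh22, known from pituitary and brain, had 6.56, 5.98 and 6.18 in red cells, against 5.97, 6.03 and 5.76 in green cells (0.32, SE 0.14, adjusted p 0.46). These groups overlapped, and the difference was 0.17 without red replicate 1.

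All 5 delta-2 protocadherins had values below 0 in red against green cells, with a median of -0.58, against -0.01 for all genes. Without E18.5 red replicate 1, 4 of the 5 were below 0, with a median of -0.46, and Pcdh19 was at 0.07. Pcdh10 had 8.89, 9.09 and 9.29 in red cells, against 9.59, 9.85 and 9.57 in green cells (-0.58, SE 0.23, adjusted p 0.43). Pcdh17 had 7.45, 8.28 and 8.74 in red cells, against 8.82, 9.04 and 9.04 in green cells (-0.81, SE 0.36, adjusted p 0.48, and -0.46 without red replicate 1). In these 2 genes and in Pcdh8 (-0.28, adjusted p 0.55) the red arrays lay below the green arrays, while those of Pcdh19 (-0.25, adjusted p 0.76) overlapped. Of the delta-1 class, Pcdh7 (0.45), Pcdh9 (0.32) and Pcdh11x (0.25) were above 0 and Pcdh1 was at -0.01, with adjusted p-values of 0.56 to 0.98.

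The promoters of Pcdh18 and Pcdh10 are shown as the delta-2 genes with the lowest p-values in the E18.5 comparisons, with the same motifs in capitals. Their windows are chr3:49757317-49757566 on the minus strand for Pcdh18 and chr3:45378148-45378397 on the plus strand for Pcdh10.
Pcdh18: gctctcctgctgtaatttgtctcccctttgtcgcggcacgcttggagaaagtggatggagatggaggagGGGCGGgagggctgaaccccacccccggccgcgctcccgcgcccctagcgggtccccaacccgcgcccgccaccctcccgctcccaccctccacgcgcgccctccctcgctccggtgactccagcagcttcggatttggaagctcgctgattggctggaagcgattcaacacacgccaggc
Pcdh10: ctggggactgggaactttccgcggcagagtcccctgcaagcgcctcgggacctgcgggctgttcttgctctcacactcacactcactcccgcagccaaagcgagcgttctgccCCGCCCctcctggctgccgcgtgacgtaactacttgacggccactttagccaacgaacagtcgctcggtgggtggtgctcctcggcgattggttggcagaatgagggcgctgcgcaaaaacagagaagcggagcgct
The GC box starts 181 bases before the start in Pcdh18, and in Pcdh10 it lies on the other strand (read as CCGCCC), 137 bases before the start. These windows had 23 and 22 CpG dinucleotides, against a median of 6 over all windows, and 7 and 11 in those of Pcdh7 and Pcdh8.

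**Figure D4:**
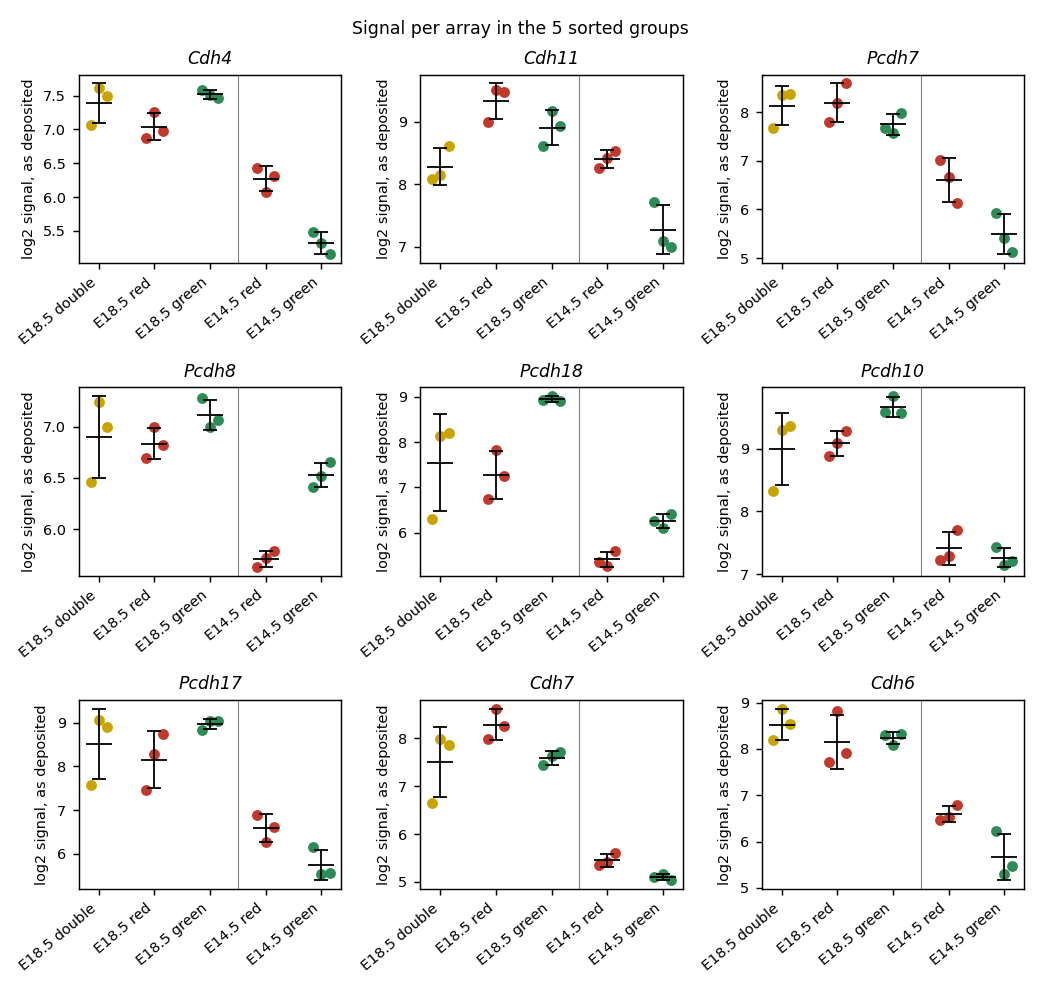
Deposited log2 signal (vertical axes, a scale for each gene) of 9 members in each array of the 5 groups, with E18.5 left of the grey line and lines at the mean ± SD of 3 arrays. Cdh4 is lower in red than green cells at E18.5 and higher at E14.5, and replicate 1 lies low in E18.5 double-labelled and red cells for Pcdh18 and Pcdh17. Deposited signals of all genes are shifted between the stages (median 0.60 in red and 0.61 in green cells), so heights across the grey line are not comparable.

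In E18.5 double-labelled against green cells 0 of 32 members passed, against 0.0361% of all genes tested, and 6 had an unadjusted p under 0.05, against 5.70% of all genes. This comparison and that of red cells share the green arrays. Groups did not overlap for 5 members, 3 higher and 2 lower in double-labelled cells, against 8.15% of all genes (4.17% higher and 3.98% lower). Pcdh18 had 6.32, 8.12 and 8.20 in double-labelled cells, against 8.92, 9.01 and 8.90 in green cells (-1.40, SE 0.38, adjusted p 0.50). All double-labelled arrays were below the green arrays, with replicate 1 far below its mates, and without the narrow-range arrays the difference was -0.78 (adjusted p 0.077). Pcdh10 had 8.33, 9.30 and 9.36 in double-labelled cells, against 9.59, 9.85 and 9.57 in green cells (-0.67, SE 0.23, adjusted p 0.69), and -0.34 without the narrow-range arrays. Its groups too did not overlap. Cdh13 had 6.83, 7.51 and 7.25 in double-labelled cells, against 7.68, 7.73 and 7.51 in green cells (-0.44, SE 0.15, adjusted p 0.69), and the difference was -0.26 without double-labelled replicate 1. Pcdh12 had 6.04, 5.64 and 5.68 in double-labelled cells, against 5.56, 5.41 and 5.29 in green cells (0.37, SE 0.13, adjusted p 0.75), and 0.24 without double-labelled replicate 1. Double-labelled arrays lay above green arrays for Pcdh12, Cdh20 (0.28) and Cdh22 (0.30). The summed linear signal of 10 endothelial markers was 387 to 456 in double-labelled and 391 to 409 in green arrays.

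In double-labelled against red cells 0 of 32 members passed, against 0.0902% of all genes tested, and 4 had an unadjusted p under 0.05, against 4.52% of all genes. Cdh11 had 8.08, 8.15 and 8.62 in double-labelled cells, against 9.00, 9.51 and 9.49 in red cells and 8.61, 9.17 and 8.94 in green cells. It was the single member whose double-labelled and red arrays did not overlap, against 4.18% of all genes. The difference was -1.05 (SE 0.22, 2.07-fold lower in double-labelled cells, adjusted p 0.14). The labels do not say whether same-numbered double-labelled and red arrays are pairs. They were treated as pairs in an added fit alone, since their deviations correlated at 0.487 to 0.669, and both replicate 1 arrays are narrow-range arrays. Values of this comparison given without a block are from the fit of group means, which has no pairs. With replicate as a block the same difference passed (SE 0.18, limma adjusted p 0.046), 1 of 32 members against 0.192% of all genes. The block was chosen from the same data, so this pass is not separate evidence. Without the narrow-range arrays it was -1.12 (adjusted p 0.084). Against green cells Cdh11 had -0.62 in double-labelled cells (SE 0.22, adjusted p 0.69) and 0.43 in red cells (SE 0.22, adjusted p 0.52).

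Cdh7 had 6.65, 7.98 and 7.85 in double-labelled cells, against 7.98, 8.61 and 8.25 in red cells (-0.78, SE 0.27, adjusted p 0.75). Cdh8 had 8.0, 9.35 and 9.56 in double-labelled cells, against 9.26, 9.93 and 10.10 in red cells (-0.79, SE 0.32, adjusted p 1.0). With replicate as a block the limma adjusted p was 0.20 for Cdh7 (SE 0.19) and 0.29 for Cdh8 (SE 0.21). In each gene replicate 1 of the double-labelled cells was the lowest value and the groups overlapped. Without that replicate the difference was -0.36 for Cdh7 and -0.31 for Cdh8, and over all fits that left out 1 of the compared arrays it was -1.03 to -0.36 for Cdh7 and -1.08 to -0.31 for Cdh8. Cdh4 had 7.06, 7.62 and 7.50 in double-labelled cells, against 6.88, 7.26 and 6.97 in red cells (0.36, SE 0.16, adjusted p 1.0), with overlap. The value of Cdh13 was -0.31 (SE 0.15, adjusted p 1.0), and -0.13 without double-labelled replicate 1. The delta-2 protocadherins differed by -0.09 to 0.35 between double-labelled and red cells, with adjusted p-values of 1.0.

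Beside these values, Gbx2 itself differed by -2.07 between red and green cells (adjusted p 0.0052) and by 1.97 between double-labelled and red cells (adjusted p 0.018). Lhx9 was lower in red cells (-0.99). The prethalamic factor Sp9 (0.88) was higher in red than green cells, 1 of 11 prethalamic and GABAergic markers. Of 8 habenular markers tested 2 passed, Chrnb3 (1.65) and Nr4a2 (1.26), both higher in red cells, against 0.613% of all genes. Differences were above 0 for 6 of the 8, and Chrna3 had means of 7.63 in red and 8.10 in green cells. Chrnb3 (-1.64) and Nr4a2 (-1.13) were lower in double-labelled than red cells, where 0.0902% of all genes passed. The summed signal of 9 habenular markers was 929 to 1286 in red and 874 to 927 in green arrays. That of 11 progenitor markers was 2247 to 2703 in double-labelled, 3385 to 4043 in red and 2306 to 2767 in green arrays, with red above both. A linear sum gives most weight to high signals, in red cells Sox2 (10.70, against 10.13 in green) and Fabp7 (9.72, against 8.65). Of the 11 markers 8 were above 0 in red against green cells, while Nes (6.18 against 6.36) and Hes5 (6.09 against 6.19) were lower in red cells. In limma's test of red against green cells 0 of the 11 progenitor markers passed and 4 had an unadjusted p under 0.05, against 10.0% of all genes. The summed signal of 11 prethalamic and GABAergic markers was 733 to 883 in double-labelled, 874 to 963 in red and 714 to 833 in green arrays. The part of such cells in the members' values was not tested. Of the catenin, shedding, WAVE and other cadherin lists 0 genes passed in red against green cells in limma's test, against 0.613% of all genes. An unadjusted p under 0.05 was reached by 5 of 19, 1 of 11, 1 of 12 and 3 of 18, against 10.0% of all genes.

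The difference of the red-green difference between the stages was then tested, a comparison in which a shift common to a stage cancels. Of 32 members 1 passed, against 1.05% of all genes tested, and 8 had an unadjusted p under 0.05, against 8.96% of all genes. It was Cdh4, whose red-green difference was -0.48 at E18.5 and 0.95 at E14.5, so that the E18.5 difference was lower by 1.43 on the log2 scale (SE 0.22, adjusted p 0.0046). The value was past the threshold in all 12 fits that left out 1 array, with an adjusted p of at most 0.022. The other Cdh4 feature had -0.42 (SE 0.22, adjusted p 0.65).

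Pcdh17 had -0.81 at E18.5 and 0.84 at E14.5, a difference of -1.65 (SE 0.51, adjusted p 0.20), which passed without the narrow-range arrays at -1.30 (adjusted p 0.025). Leaving out E18.5 red replicate 1 alone gave the same -1.30, which did not pass (adjusted p 0.33). At E18.5 Pcdh19 had 7.67, 8.60 and 8.65 in red cells, against 8.51, 8.63 and 8.51 in green cells, and its difference was -1.14 from that at E14.5 (SE 0.47, adjusted p 0.44). Cdh6 had 7.72, 8.81 and 7.92 in E18.5 red cells, against 8.31, 8.08 and 8.32 in E18.5 green cells, and the value was -1.01 (SE 0.40, adjusted p 0.40). Both genes overlapped at E18.5 and not at E14.5. Cdh11 differed by -0.71 (SE 0.31, adjusted p 0.49). Pcdh8 had 0.54 (SE 0.24, adjusted p 0.50), and 4 of the 5 delta-2 protocadherins were below 0. The median over members was -0.30, against -0.01 for all genes. For Cdh9, Cdh10 and Cdh22, which passed between stages in a single colour, the values were 0.34, -0.65 and 0.28, with adjusted p-values of 0.96, 0.87 and 0.85. Cdh2, Cdh5 and Pcdh15, which passed between stages in green cells alone, did not pass here either. Among partners, Ctnna1 (0.92, adjusted p 0.017) and Magi1 (-0.82, adjusted p 0.033) of the catenin list and Mmp14 (1.51, adjusted p 0.0046) of the processing list passed. Top2a (2.05) and Mki67 (1.61) passed as well, 2 of 11 progenitor markers, as did Prox1 (-1.88), 1 of 10 thalamic markers. Chrnb3 (1.70, limma adjusted p 6.0e-04), 1 of 8 habenular markers tested, and Hbb-y (-1.36), 1 of 2 erythroid markers tested, passed too. The share of all genes that passed is given above, and the part of these markers in the Cdh4 value was not tested.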

How the data were processed

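The authors deposited log2 signals made with Affymetrix Expression Console, per the submitters' processing notes; the version and summarisation method are not given in the sources used here. Per the labels' protocols, 10 ng RNA of sorted cells went into whole-transcriptome amplification (Nugen Ovation Pico). The deposited log2 values ran from 4.15 to 13.2 over 33794 transcript clusters, of which 23521 name 1 gene symbol, 1814 several and 8459 none.

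Within-stage tests used the deposited values, and tests between stages used quantile-normalised values (deposited and median-centred values were alternatives). A limma 3.58.1 fit (R 4.3.3) of group means over 15 arrays, with 10 residual degrees of freedom (13.9 after moderation, 13.7 for quantile-normalised values), was adjusted by Benjamini-Hochberg over 16635 genes, in 8 comparisons, after leaving out the 25% of genes with the lowest mean. The fit was tested on simulated data. The members and lists were chosen with earlier results of these data known. Named were members past the threshold, with the 5 smallest p-values in comparisons of under 5 calls, the 8 largest differences per direction between stages, and up to 4 called genes a list by smallest p; the rule's ranking of levels was left out, since probes cannot be set against each other. Deviations of same-numbered double-labelled and red arrays correlated at 0.669, 0.496 and 0.487. From the data these were therefore taken as pairs in the fit with replicate as a block, while the main fit had no pairs. In the other comparisons at least 1 number fell under 0.1. The number of arrays limits the precision.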

Additional observations from a re-analysis of the deposited data

Results flagged for a closer look

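The red-green difference of Cdh4 differed between the stages by a test of that difference itself. It was -0.48 at E18.5 and 0.95 at E14.5, and the E18.5 minus E14.5 value was -1.43 (SE 0.22, limma adjusted p 0.0046). All 3 E18.5 red arrays lay below the E18.5 green arrays, and all 3 E14.5 red arrays lay above the E14.5 green arrays. The E18.5 difference by itself did not pass (adjusted p 0.29). The other Cdh4 feature had -0.42 (adjusted p 0.65), so the call rests on 1 of the 2 features. On that other feature the E18.5 red and green arrays overlapped (-0.17, adjusted p 0.65).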

How the results depend on the processing

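Between stages, 11 of 20 calls in red and 18 of 23 in green cells passed in the same direction in all 14 alternatives compared. Leaving out 1 array gave 16 to 19 calls in red (20.7% to 29.3% of all genes) and 21 to 23 in green cells (25.9% to 27.9%). Leaving out the lowest 50% of genes, with 11090 genes tested, gave 13 in red (29.0%) and 17 in green cells (36.8%). As deposited, Cdh1 reversed to 0.083 in red and 0.094 in green cells and Cdh26 to 0.267 and 0.284. At E14.5, calls numbered 1 to 5 without 1 array (1.48% to 3.17% of all genes), against 4 (3.52%) in the main fit. They numbered 9 without the narrow-range arrays (8.62%), 11 from the 6 E14.5 arrays alone (8.22%) and 13 with array weights (15.2%). At E18.5, no fit without 1 array gave a call between pairs of populations (0 to 0). The test of any difference gave 0 to 1 (Pcdh18 without double-labelled replicate 1, where 0.998% of all genes passed). Array weights gave 2 calls for red against green (1.24% of all genes), 5 for double-labelled against green (6.67%), 2 for double-labelled against red (2.68%), 6 for any difference (8.38%) and 3 for the difference between stages (3.87%). Without the narrow-range arrays 2 passed for red against green (1.28%), 2 for any difference (1.24%) and 2 for the difference between stages (2.92%) (1 to 1 without 1 array). Quantile normalisation gave 1 call for double-labelled against red (0.192% of all genes) and 1 for any difference (0.547%), both Cdh11. With replicate as a block, calls numbered 1 for red against green (Pcdh18, 1.41% of all genes) and 0 for double-labelled against green (0.0721%). For double-labelled against red 1 passed (Cdh11, 0.192%), and for any difference 2 passed (0.914%). The block gave 6 calls at E14.5 (5.06%) and 2 for the difference between stages (2.06%). Between stages it gave 20 in red (29.3%) and 23 in green cells (36.0%). Numbers other than those of double-labelled and red arrays were not taken as pairs. Their correlations were 0.058 to 0.465 for red and green at E18.5 and 0.069 to 0.265 at E14.5. For double-labelled and green arrays they were 0.047 to 0.414. The labels do not give the litters, so whether these arrays are paired is not known. The cause of these changes was not tested.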
